A study of Bos taurus with 43 samples.

Results

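The solute carrier (SLC) genes encode membrane proteins that move small molecules across the plasma membrane and the membranes of organelles. They are grouped into numbered families by sequence, and the family number often points to a class of substrates such as hexoses, lactate, amino acids, metals or the nucleotides exchanged at the inner mitochondrial membrane. In skeletal muscle, SLC25A4 (the adenine nucleotide carrier of heart and muscle) exports ATP from mitochondria, SLC2A4 (GLUT4) is the insulin-responsive glucose transporter, and SLC16A1 and SLC16A3 (MCT1 and MCT4) carry lactate.

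Members were all gene probes of a bovine single-colour array whose gene name began with SLC and a family number, or whose description contained the words solute carrier family. This gave 330 of 21475 gene probes, for 290 genes (of 20561 differently named genes or transcripts on the array) in 44 families, and 258 of these genes had 1 probe. Many descriptions were predictions by similarity to human genes, 267 of the 330 probes matched an entry of RefSeq (assembly ARS-UCD2.0) and 250 carried an SLC symbol there. Not every member was a carrier. The scaffold proteins NHERF1 (named SLC9A3R1 on the array) and SLC9A3R2, the adaptor protein SLC4A1AP and the opposite-strand gene SLC7A6OS were included by their names, and 1 probe described as SLC26A1, a sulphate transporter, matched by its gene number IDUA, a lysosomal enzyme, in RefSeq. They were kept in the classes of their families.

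RNA from the biceps brachii of 43 male cattle was measured, each animal on an array of its own. The labels gave 4 animals as suspected of corticosteroid treatment (S21, S54, S56 and S57), 21 animals as of unknown treatment, and 18 negative controls, of which 5 carried K numbers and 13 carried C numbers. According to the study's methods, the K controls were bulls of mixed Charolais and Limousine breed and the C controls were Holstein cattle. The suspected and unknown animals were commercial cattle sampled at slaughter, mostly Charolais, Limousine or mixed. Ages differed between these sets. Suspicion rested on thymus histology and on dexamethasone, a synthetic corticosteroid, in urine. The labels gave no dose or time of any treatment.

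The arrays lay on 19 slides scanned on 13 days with 3 scanners. No slide, scan day or scanner of the K controls was used for another group, so breed, age, treatment and batch cannot be told apart in any comparison with them. The C controls shared no slide or scan day with the others either. The 4 suspected animals lay on slides 9 and 10, both scanned on day 6, together with unknown animals 50, 78, 79 and 81. The share of gene spots well above background was 40.2% in unknown animal 79 and 97.3% in unknown animal 50.

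All values below are normalized log2 signals of 1 probe, and a level of one probe is not set against that of another. Signals well above background on all 43 arrays were found for 87 of the 330 SLC probes (26.4%), against 36.1% of all gene probes. Another 238 passed on some arrays and 5 on none. Among those 5, named after their values were seen, were probes for SLC25A2, SLC26A4, SLC35F4 and SLC6A14 (1 of its 2 probes). The share of SLC probes well above background was 64.8% to 81.2% in the suspected animals, 54.8% to 63.6% in the K controls and 50.0% to 65.2% in the C controls. Over all gene probes the share was likewise higher in the suspected animals, at 71.4% to 87.6%, 60.9% to 71.4% and 60.4% to 71.3% in the same order. Among the unknown animals this share was lowest in animal 79 (27.3%) and highest in animal 50 (97.3%), around a median of 62.1%. A filter on dim probes passed 225 SLC probes (68.2%) and 76.2% of all gene probes. By class, it passed 33 of 36 probes for mitochondrial carriers and 27 of 34 for metal transporters, but 29 of 47 for amino acid transporters and 15 of 27 for glucose and sugar transporters.

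**Figure D1:**
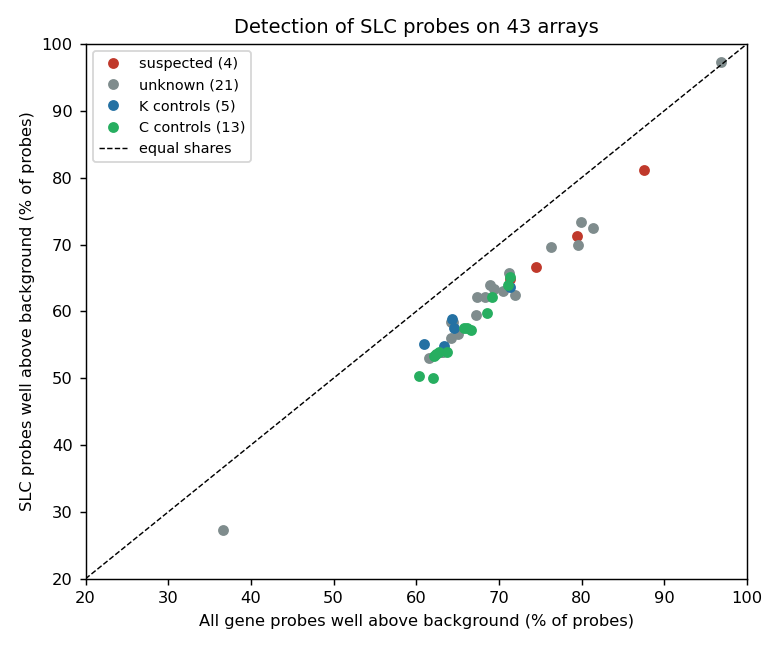
Share of SLC probes (vertical axis, %) against the share of all gene probes (horizontal axis, %) that were well above background; each point is 1 array, coloured by group, and the dashed line marks equal shares. Points lie below the line except for unknown animal 50, at 97.3% of SLC probes and 96.8% of all gene probes, and unknown animal 79 is lowest at 27.3%.

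Markers of muscle fibres were bright in every group. Skeletal actin (ACTA1), myoglobin (MB) and desmin (DES) were well above background on every array. Fast fibre markers moved with the groups. Of 8 fast fibre genes listed, 5 had a probe (6 probes), and the log2 of their summed signal was 14.06 to 16.43 in the suspected animals, 18.58 to 19.53 in the K controls and 19.22 to 20.02 in the C controls, and 13.62 to 19.27 in the unknown animals. The first of 2 probes for MYH1, a fast myosin heavy chain, measured 13.64, 7.53, 9.37 and 8.75 in S21, S54, S56 and S57 and 16.40 to 17.68 in the K controls. ATP2A1, the calcium pump of fast fibres, measured 10.08 to 13.39 in the suspected animals and 16.48 to 17.69 in the K controls. The summed adipocyte markers were 7.21 to 8.42 in the K controls, 10.43 to 11.47 in the suspected animals, 8.77 to 12.41 in the C controls and 9.35 to 14.07 in the unknown animals. FABP4, a fatty acid binding protein of adipocytes, measured 1.75 to 6.44 in the K controls and 9.30 to 10.34 in the suspected animals. The summed fibroblast markers were 11.84 to 13.59 in the suspected animals and 14.30 to 15.84 in the C controls. Endothelial markers (5 genes) summed to 12.53 to 13.47 in the suspected animals, 11.35 to 12.34 in the K controls, 10.77 to 12.25 in the C controls and 11.15 to 13.87 in the unknown animals. Among them, VWF, the von Willebrand factor, measured 11.39 to 12.63 in the suspected animals and 9.71 to 10.70 in the K controls, whereas PECAM1, an adhesion molecule of endothelium, measured 8.78 to 9.76 and 9.10 to 10.11. These sums differed between some of the groups, and their part in the SLC results given below was not tested. In bulk muscle, fewer cells or fibres of a type and less RNA per cell cannot be told apart.

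The first comparison asked which SLC genes differed between suspected animals and K controls. A probe was called where limma's adjusted p was under 0.05 and the change at least 2-fold. Of 225 SLC probes, 39 were higher and 39 lower in the suspected animals, together 34.7%, where 28.1% of all probes tested were called (14.4% higher and 13.8% lower). The median log2 change was 0.04 over the SLC probes and -0.03 over all probes. In the comparison of C with K controls, 25 SLC probes were higher and 26 lower in the C controls, together 22.7%, beside 20.6% of all probes (10.9% higher and 9.69% lower). In suspected animals against C controls, 21 were higher and 27 lower, together 21.3%, beside 17.8% of all probes (8.4% higher and 9.4% lower). In unknown animals against K controls, 16 were higher and 13 lower, together 12.9%, beside 10.4% of all probes (5.24% higher and 5.19% lower). These comparisons share animals. The share of SLC probes called lay a few percentage points above that of all probes in each of them, which was not tested. After normexp background correction, a model-based subtraction, it held in the first of the 4 comparisons only. The SLC share was then 9.78% beside 8.31% of all probes in suspected animals against K controls, 8.44% beside 8.49% in C against K controls, 2.22% beside 2.82% in suspected animals against C controls and 4.89% beside 5.08% in unknown animals against K controls. In unknown animals it also ended without the 5 animals of lowest spike-in signal (10.2% beside 10.7%), a choice made after seeing the data. With each array scaled to its 75th percentile, the split between higher and lower became 50 to 25 in suspected animals against K controls, 17 to 38 in C against K controls and 47 to 8 in suspected animals against C controls. Quantile normalization gave 34 to 56, 20 to 29 and 21 to 41 in the same order, and 7 to 13 in unknown animals against K controls. Pairwise cyclic loess, which normalizes each pair of arrays in turn, gave 29 to 63, 28 to 20 and 30 to 62, and 14 to 16 in unknown animals. The median log2 change of all probes moved with the scaling, from -0.03 to 0.11 (75th percentile), -0.13 (quantile) and -0.25 (pairwise loess) in suspected animals against K controls, and from -0.05 to 0.19, -0.06 and -0.26 against C controls. In C against K controls it moved from 0.01 to -0.11, -0.06 and 0.01. In suspected animals against controls, the split also moved with a change of the filter alone. Where probes well above background on at least 0.5 of the arrays of either group were tested instead, so that a probe could enter through the group in which it was high, it was 67 to 32 in suspected animals against K controls and 49 to 14 against C controls. That filter gave 24 to 24 in C against K controls and 16 to 13 in unknown animals against K controls. With no filter, the split was 67 to 75 in suspected animals against K controls and 49 to 62 against C controls. The numbers of higher and lower probes, within classes too, are therefore tied to the scaling and the filter.

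Signal close to background set a limit on many of these changes. Of the 78 SLC probes called between suspected animals and K controls, 32 were well above background on every array of both groups, and 19 of the 32 were higher in the suspected animals. For 20 of the 78, the dimmer group had no array well above background, so that a fold change is only a bound. After normexp background correction with an offset of 50, the calls fell to 22 of 225 SLC probes and to 1359 of 16354 probes in all. The 22 included those for SLC25A4, SLC16A3, SLC16A6, SLC16A7, SLC43A2, SLCO2A1 and both SLC40A1 probes described below.

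**Figure D2:**
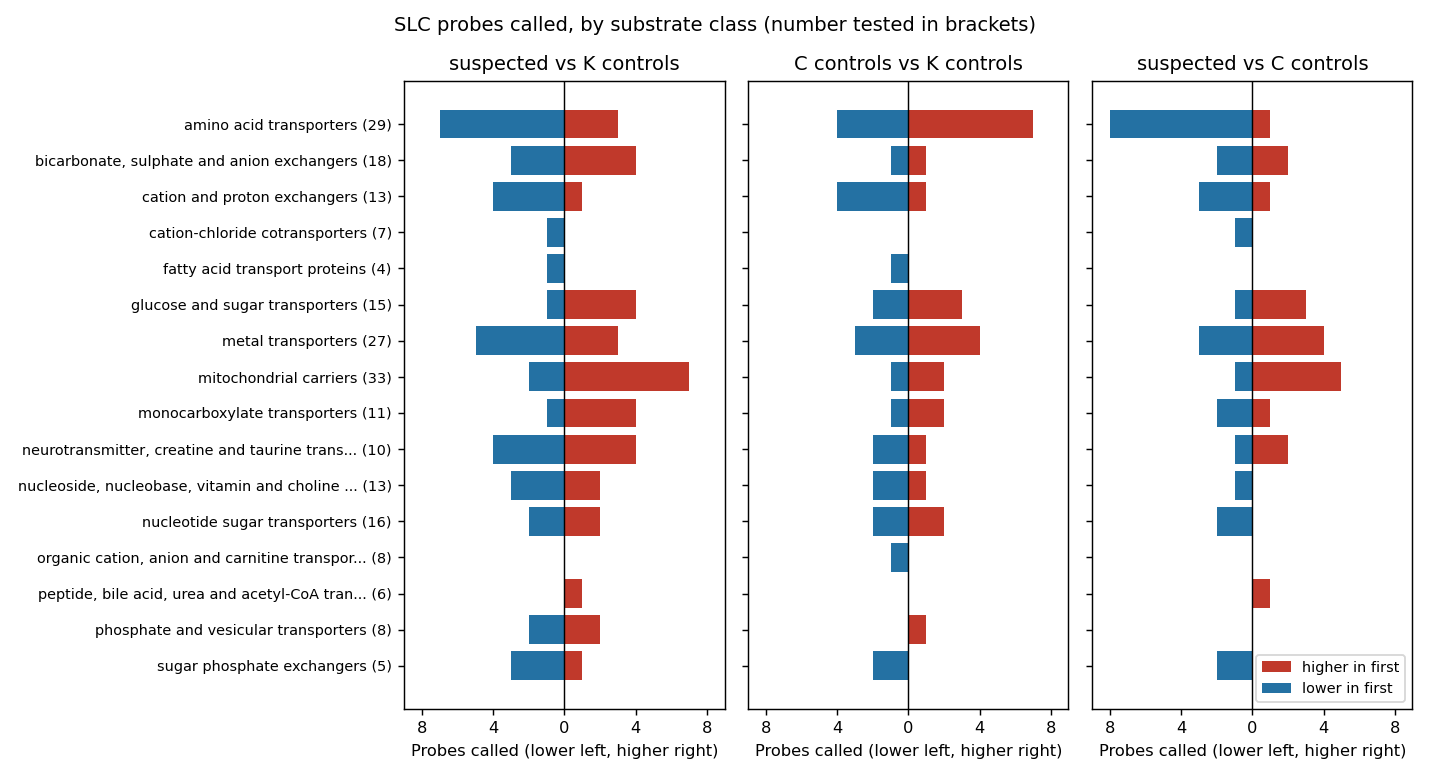
Number of SLC probes called (horizontal axis) in each substrate class (number tested in brackets) in 3 comparisons; bars to the right are probes higher, and bars to the left probes lower, in the group named first. Amino acid transporters had 3 higher and 7 lower probes in suspected animals against K controls and 7 higher and 4 lower in C against K controls, which became 3 and 4, and 4 and 6, with 75th percentile scaling. In C against K controls 37.9% of this class was called, beside 20.6% of all probes.

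Mitochondrial carriers were measured by 36 probes, of which 33 were tested. Between suspected animals and K controls 7 were called higher and 2 lower, and the median log2 change over the class was 0.03, while pairwise cyclic loess gave 5 and 5. The share called was 27.3%, beside 28.1% of all probes. SLC25A4 measured 15.003, 14.64, 14.65 and 14.72 in S21, S54, S56 and S57. In K7, K8, K10, K11 and K12 it measured 13.38, 13.14, 12.51, 12.58 and 12.96. The suspected animals lay above all K controls, by 1.84 ± 0.20 on the log2 scale (SE, limma adjusted p = 4.79e-05), which is 3.58-fold. The C controls spanned 13.89 to 14.85 (median 14.32), again above every K control (1.43 ± 0.17, limma adjusted p = 2.86e-06). Suspected animals and C controls overlapped (0.41 ± 0.16, limma adjusted p = 0.0559). Where all 43 arrays shared one estimate of the spread, neither difference from the K controls was called, with limma adjusted p = 0.12 for the suspected animals and 0.11 for the C controls.

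In the unknown animals SLC25A4 fell into 2 sets that followed the scan days without exception. The 11 unknown animals scanned on days 4 and 5 measured 10.18 to 11.53, below every K control. The 10 unknown animals scanned on days 6 to 9 measured 14.47 to 14.87, as high as the suspected animals. On day 6, unknown animals measured 14.48 to 14.84 and suspected animals 14.64 to 15.003. On their shared slides the suspected animals differed from the unknown ones by 0.11 ± 0.14 (SE, limma with slide as a block, adjusted p = 0.77). No slide or scan day held unknown animals of both sets, so that batch and animal cannot be told apart. The border between days 5 and 6 was set after the values of SLC25A4 were seen. Over all probes tested, 6.21% were higher and 5.49% lower without overlap on days 6 to 9, and among the SLC probes 10 were higher and 12 lower of 225. Other SLC probes higher on the later days included the first SLC44A4 probe (7.20 to 8.95 against 9.64 to 10.85). The first probe for SLC25A25, an ATP-Mg and phosphate carrier, and that for SLC39A14, a zinc, iron and manganese transporter, were higher too. The second SLC25A25 probe overlapped (4.19 to 5.86 against 4.75 to 6.31), and the second SLC44A4 probe did not pass the filter. SLC38A2, a glutamine transporter, was lower (13.19 to 13.82 against 12.07 to 12.92).

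**Figure D3:**
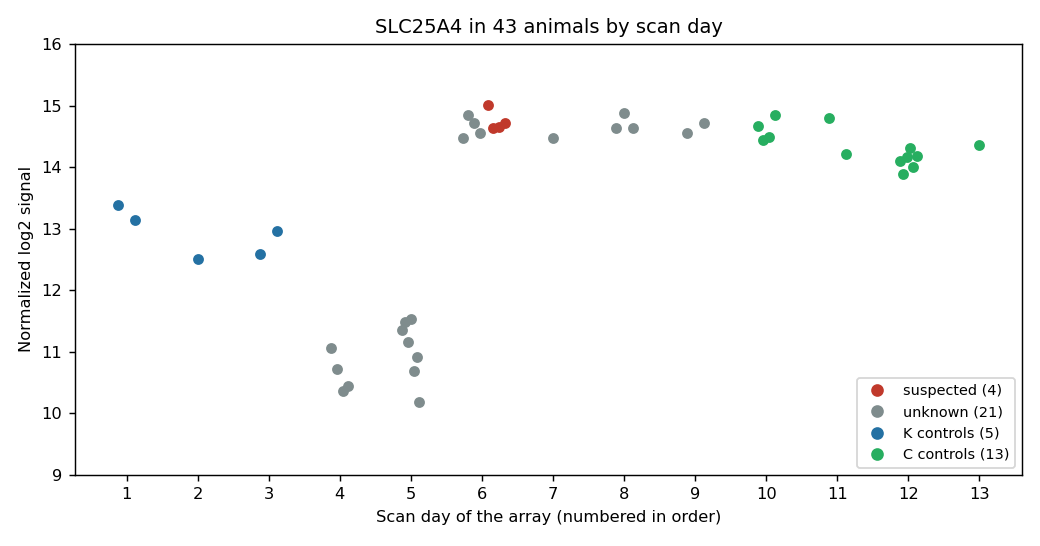
Normalized log2 signal of SLC25A4 (vertical axis) in 43 animals by the scan day of their array (horizontal axis, days numbered in order), coloured by group; each point is 1 animal. Unknown animals measured 10.18 to 11.53 on days 4 and 5 and 14.47 to 14.87 on days 6 to 9, and the K controls on days 1 to 3 lay between both sets.

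Among the other mitochondrial carriers, SLC25A16 measured 8.81, 8.32, 8.60 and 8.50 in S21, S54, S56 and S57 and 7.07, 7.26, 7.17, 7.49 and 6.98 in K7, K8, K10, K11 and K12. It was higher than in the K controls in the suspected animals (1.36 ± 0.16, SE, limma adjusted p = 7.04e-05), the C controls (1.34 ± 0.20, limma adjusted p = 3.35e-05) and the unknown animals (1.28 ± 0.21, limma adjusted p = 9.37e-05), and none of these groups overlapped the K controls. Its call in suspected animals ended under pairwise cyclic loess (0.72) and after normexp correction (0.99). SLC25A3, the mitochondrial phosphate carrier, ranged from 7.88 to 9.09 in the suspected animals and from 8.15 to 8.43 in the K controls, but from 6.36 to 7.83 in the C controls. It was lower in the C than in the K controls (-1.26 ± 0.18, SE, limma adjusted p = 2.35e-05) and higher in suspected animals than in C controls (1.29 ± 0.24, limma adjusted p = 0.000445). The 6 SLC probes with the smallest SD over 43 animals, among those well above background on every array, held 4 mitochondrial carriers. Among these were SLC25A11 (2-oxoglutarate carrier, SD 0.21), SLC25A20 (carnitine and acylcarnitine carrier, SD 0.23) and SLC25A28, beside SLC35A4 and SLC35C2. SLC25A4 had the largest SD of that set, 1.61.

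The 6 probes for SLC37 sugar phosphate exchangers, of which 5 were tested, included 2 named SLC37A3, and the untested one was described as similar to an isoform of the same member. The first SLC37A3 probe measured 1.72, 1.64, 1.83 and 2.03 in S21, S54, S56 and S57 and was well above background in none of them. It measured 5.29, 5.35, 5.55, 5.14 and 5.49 in K7, K8, K10, K11 and K12 and was well above background in all 5. The K controls were therefore at least 4.47-fold higher (limma adjusted p = 5.11e-07). This probe was well above background in 1 of 13 C controls (2.57 to 5.12) and in 9 of 21 unknown animals (0.91 to 5.12). It was called lower in C controls and in unknown animals as well (adjusted p = 0.000209 and 0.0333 by limma), the latter call ending without any one of the K controls. The second SLC37A3 probe, against another transcript variant, measured 3.27 to 3.95 in the suspected animals and 5.94 to 6.33 in the K controls. Both probes lost their calls after normexp background correction, with changes of -0.70 and -0.78 between suspected animals and K controls. Of the other exchangers, SLC37A1 was higher in suspected animals (8.65 to 9.41) than in K controls (7.41 to 8.63), and SLC37A2 was lower (2.91 to 4.29 against 4.39 to 6.09).

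Glucose and sugar transporters had 15 tested probes, of which 4 were called higher and 1 lower in suspected animals against K controls (33.3%, beside 28.1% of all probes), a split that turned to 2 and 5 under pairwise cyclic loess. SLC2A4 was bright in every group, at 14.17 to 14.29 in suspected animals, 13.41 to 14.11 in K controls, 12.95 to 14.08 in C controls and 12.35 to 14.32 in unknown animals. Its change of 0.43 ± 0.16 (SE) against the K controls had a limma adjusted p of 0.0453 and did not reach 2-fold. SLC2A1 (GLUT1), the basal glucose transporter, was called higher in suspected animals than in C controls, a call that ended without S54 or without S56, at changes of 0.76 and 1.08 (limma adjusted p = 0.170 and 0.0815).

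Monocarboxylate transporters (11 tested) showed 4 higher probes and 1 lower in suspected animals against K controls (5 of 11, or 45.5%, beside 28.1% of all probes), or 2 and 3 under pairwise cyclic loess. SLC16A3, which exports lactate from glycolytic fibres, measured 6.29, 5.83, 6.02 and 6.10 in S21, S54, S56 and S57. It measured 8.38, 8.39, 7.88, 8.50 and 7.79 in K7, K8, K10, K11 and K12 and 6.73 to 8.55 in the C controls, and the suspected animals lay below both. The difference was -2.13 ± 0.19 against the K controls (SE, limma adjusted p = 1.41e-05, 4.36-fold) and -1.56 ± 0.26 against the C controls (limma adjusted p = 0.000176). The second call ended under pairwise cyclic loess (-0.52) and after normexp correction (-0.65). In the unknown animals SLC16A3 measured 6.66 to 9.50 on scan days 4 and 5 and 4.89 to 7.07 on scan days 6 to 9. The latter range included the suspected animals. On the shared slides, suspected animals differed from unknown ones by -0.34 ± 0.27 (SE, limma with slide as a block, adjusted p = 0.64). SLC16A1 was higher in the suspected animals (9.16 to 10.22) than in the K controls (8.07 to 9.06), by 1.16 ± 0.26 (limma adjusted p = 0.00406), a call lost under pairwise cyclic loess (0.50) and after normexp correction (0.90). The suspected animals, low in SLC16A3, also had the fast fibre sums given above, which lay below those of every control animal.

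SLC16A7 (MCT2), a high-affinity carrier of pyruvate and lactate, measured 10.71, 11.16, 11.05 and 11.09 in S21, S54, S56 and S57, and 8.57, 8.39, 6.71, 10.20 and 8.78 in K7, K8, K10, K11 and K12. The C controls spanned 2.95 to 7.49 (median 6.14). Suspected animals lay above the C controls without overlap (5.19 ± 0.66, SE, limma adjusted p = 1.28e-05, 36.6-fold, with 12 of 13 C controls well above background), and the C controls were lower than the K controls (-2.72 ± 0.66, limma adjusted p = 0.00265). SLC16A6 (MCT7), a carrier of ketone bodies, ran the other way between the controls. It measured 3.22 to 4.80 in the K controls, where 1 of 5 arrays was well above background, 6.04 to 10.11 in the C controls and 5.84 to 6.74 in the suspected animals. Its change was 4.57 ± 0.48 in C against K controls (limma adjusted p = 7.76e-07) and 2.44 ± 0.31 in suspected animals against K controls (limma adjusted p = 0.000125), the latter no longer 2-fold under pairwise cyclic loess (0.94).

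**Figure D4:**
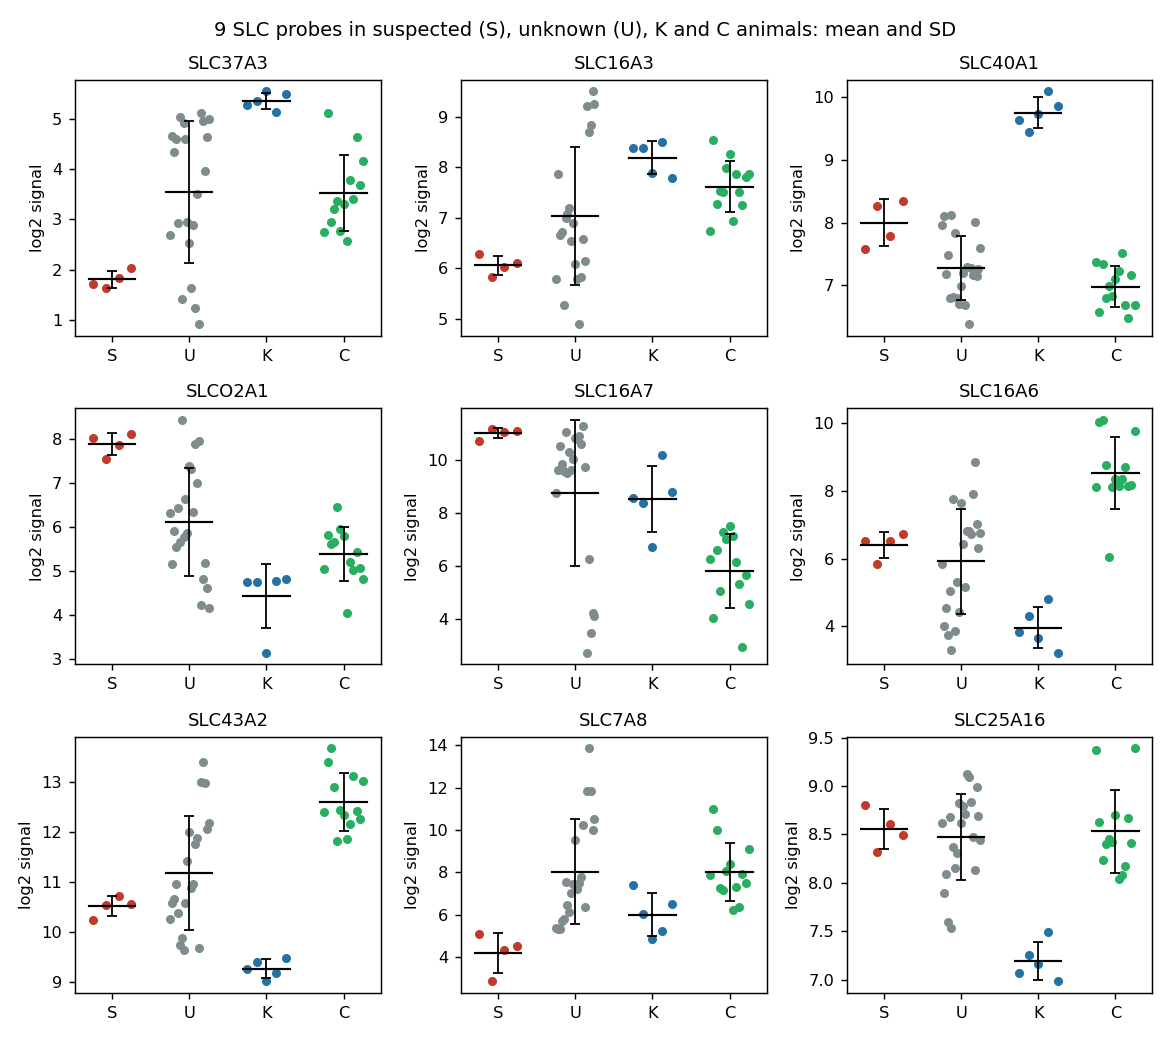
Normalized log2 signal (vertical axes) of 9 SLC probes in suspected (S), unknown (U), K control and C control animals; each point is 1 animal, and bars give the mean and SD. SLC40A1 was highest in the K controls (9.45 to 10.09), the first SLCO2A1 probe was higher in suspected animals (7.54 to 8.12) than in either control group, and SLC43A2 was highest in the C controls (11.81 to 13.67) against K controls (9.01 to 9.49).

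Among amino acid transporters (29 tested), 3 were higher and 7 lower in suspected animals against the K controls (34.5%, beside 28.1% of all probes), and 1 was higher and 8 lower against the C controls (9 of 29, beside 17.8%). The median log2 change over the class was -0.02 and -0.46. With 75th percentile scaling these counts were 3 and 4 against the K controls and 3 and 2 against the C controls, and after normexp correction 2 and 0 against the K controls. Of the 7 lower probes, 4 were for predicted transcripts described as similar to SLC7A3, a cationic amino acid transporter, and 3 of these 4 were well above background in no suspected animal (seen after the values). Different predicted loci of one name were counted here under 1 gene. SLC43A2, a carrier of large neutral amino acids, measured 10.24 to 10.73 in suspected animals, 9.01 to 9.49 in K controls, 11.81 to 13.67 in C controls and 9.63 to 13.39 in unknown animals. None of the first 3 groups overlapped another (3.33 ± 0.26 in C against K controls, SE, limma adjusted p = 2.04e-08, and -2.08 ± 0.29 in suspected animals against C controls, limma adjusted p = 3.02e-05). SLC7A8 (LAT2), an exchanger of neutral amino acids, measured 5.07, 2.86, 4.34 and 4.53 in S21, S54, S56 and S57, where 2 of 4 arrays were well above background, and 6.21 to 10.98 in the C controls (-3.81 ± 0.69, limma adjusted p = 0.000402). Its difference from the K controls (4.87 to 7.39) was called, but not without S54 (-1.36, limma adjusted p = 0.0532), and turned to 0.22 after normexp correction. SLC38A4, a sodium-coupled carrier of neutral amino acids, measured 6.95 to 7.98 in suspected animals, 5.01 to 6.63 in K controls, 7.15 to 9.19 in C controls and 6.28 to 8.96 in unknown animals. It was higher than in the K controls in suspected animals (1.57 ± 0.33, SE, limma adjusted p = 0.0029) and in C controls (2.03 ± 0.29, limma adjusted p = 2.40e-05). SLC7A5 (LAT1) measured 5.28 to 9.29 in C controls and 3.77 to 5.72 in K controls (2.21 ± 0.50, limma adjusted p = 0.00143).

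Metal transporters (27 tested) gave 3 higher and 5 lower probes (5 and 3 with 75th percentile scaling) in suspected animals against K controls, or 29.6%, which is near the 28.1% of all probes. In C against K controls 4 were higher and 3 lower (25.9%, beside 20.6%). SLC40A1 (ferroportin), the iron exporter, was lower than in the K controls in every other group by both of its probes. The first SLC40A1 probe measured 7.58, 8.27, 7.78 and 8.35 in S21, S54, S56 and S57 and 9.64, 9.45, 9.73, 10.09 and 9.86 in K7, K8, K10, K11 and K12. It ranged from 6.48 to 7.51 in the C controls and from 6.38 to 8.11 in the unknown animals, without overlap with the K controls. The change against the K controls was -1.76 ± 0.20 in suspected animals (SE, limma adjusted p = 6.87e-05), -2.78 ± 0.17 in C controls (limma adjusted p = 1.26e-09) and -2.48 ± 0.24 in unknown animals (limma adjusted p = 1.21e-07). The second probe gave -1.07, -1.26 and -1.16 in the same order, and its call in suspected animals ended at -0.93 with 75th percentile scaling and at -0.62 under pairwise cyclic loess. The first probe was also higher in suspected animals than in C controls (1.02 ± 0.19, limma adjusted p = 0.00067), a call that ended without S54 (0.93) or without S57 (0.90).

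SLC39A8, a zinc and manganese importer, measured 7.62, 7.48, 7.23 and 7.58 in S21, S54, S56 and S57 and 5.23, 5.06, 4.41, 3.25 and 6.53 in K7, K8, K10, K11 and K12. Suspected animals lay above every K control (2.58 ± 0.52, SE, limma adjusted p = 0.002) and above every C control (4.89 to 6.98, with a change of 1.30 ± 0.28, limma adjusted p = 0.00157). SLC39A5, another zinc importer, was likewise higher in suspected animals (7.42 to 7.84) than in K controls (4.21 to 6.26) and C controls (4.36 to 7.13). SLC31A1, the copper importer, measured 5.27 to 6.55 in the K controls, with all 5 well above background, and 3.28 to 4.30 in the suspected animals, with 2 of 4 well above background (-2.23 ± 0.29, limma adjusted p = 0.000139). It was lower in the C controls too (3.11 to 4.99), of which 3 of 13 were well above background.

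The first of 2 probes for SLCO2A1, the prostaglandin transporter, had the largest increase among SLC probes in suspected animals against K controls. The second was tested too and was called against neither control group. The first probe measured 8.01, 7.54, 7.85 and 8.12 in S21, S54, S56 and S57 and 4.75, 4.74, 3.14, 4.76 and 4.81 in K7, K8, K10, K11 and K12, with 3 of 5 K controls well above background (3.44 ± 0.34, SE, limma adjusted p = 2.36e-05). By this probe, suspected animals also lay above the C controls (4.04 to 6.45), by 2.50 ± 0.30 (limma adjusted p = 8.04e-06), or 0.94 and not called after normexp correction. In the unknown animals the first probe measured 4.16 to 5.91 on scan days 4 and 5 and 6.32 to 8.44 on scan days 6 to 9. The second probe overlapped between these days (4.38 to 7.39 and 4.35 to 7.31). The endothelial sums were likewise higher in the suspected animals than in every animal of both control groups, and their part in this result was not tested. Among ion carriers, SLC4A4, a sodium bicarbonate cotransporter, was lower in suspected animals (4.65 to 6.53) than in K controls (6.81 to 7.66, -1.77 ± 0.37, limma adjusted p = 0.00276), a call lost in the common fit of 43 arrays, under pairwise cyclic loess (-0.94) and after normexp correction (-0.52). SLC12A4, a potassium and chloride cotransporter, was lower in suspected animals (8.47 to 8.76) than in K controls (10.18 to 10.72), and SLC9A5, a sodium and proton exchanger, was lower than in the K controls (12.21 to 12.82) in the suspected animals (10.76 to 11.33), the C controls (10.94 to 11.83) and the unknown animals (10.37 to 11.86). The call of SLC9A5 in the C controls ended without K7 (-0.94) or without K11 (-0.98).

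For 2 genes, probes were called in opposite directions between suspected animals and K controls. For SLC8A3, a sodium and calcium exchanger, the probe described as transcript variant d measured 2.34 to 3.53 in suspected animals and 5.87 to 6.55 in K controls. The probe described as variant a measured 5.72 to 5.95 and 3.72 to 5.13, and its sign turned to -1.14 under pairwise cyclic loess. For SLC34A2, a sodium and phosphate cotransporter, the probes measured 4.36 to 4.94 against 1.82 to 3.78 and 1.84 to 3.92 against 4.10 to 5.14, and neither was well above background on every K array. For the SLC8A3 pair, only the probe for variant a matched RefSeq, and whether both read the same gene was not tested.

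Suspected and unknown animals were compared next, the only comparison in which groups shared slides. None of 225 SLC probes was called by limma, beside 0.0489% of all probes tested, with 55 SLC probes (24.4%) at an unadjusted p under 0.05, beside 23.8% of all probes, and a lowest adjusted p of 0.0955. On the 2 shared slides, 4 suspected and 4 unknown animals gave no call by limma with slide as a block, with 26 SLC probes (11.6%) at an unadjusted p under 0.05, beside 11.5% of all probes, and a lowest adjusted p of 0.207, for SLC7A8 (-3.50 ± 0.81, SE). Where probes were instead filtered on signal well above background, 24 of 251 were called (9.56%, beside 7.98% of all probes), and with all 43 arrays in a common fit 16 of 225 (7.11%, beside 6.44%). Through that filter a probe could enter by the group in which it was high. Of its 24 calls, 21 were higher in the suspected animals, as were 1145 of the 1406 calls over all probes. The common fit gave 5 higher and 11 lower.

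The unknown animals numbered 263, 265, 266, 269 and 270 stood apart in the SLC probes given here. How many SLC probes, or probes of the whole array, set these animals apart was not counted. SLC16A7 measured 2.74, 6.27, 3.49, 4.23 and 4.14 in these 5 animals and 8.77 to 11.29 in the other 16. These values did not overlap. SLC7A8 measured 11.82, 13.86, 11.82, 10.01 and 10.53 and was 5.31 to 10.22 in the others, a slight overlap. SLC43A2 measured 12.99, 13.39, 12.98, 12.07 and 12.18 and was 9.63 to 12.002 in the others. Animal 269 lay on slide 6 beside animals 36 and 58, which measured 9.62 and 10.03 for SLC16A7, and the other 4 filled slide 7. Some fast fibre markers moved with them. ACTN3, the alpha-actinin of fast fibres, measured 16.88 to 17.79 in these 5 animals and 10.35 to 14.69 in the other 16. TNNT3, the fast troponin T, measured 15.10 to 16.70 and 10.31 to 14.31, and ATP2A1 16.50 to 16.87 and 11.62 to 16.02, while both MYH1 probes and MYLPF overlapped. The part of these markers in the SLC values was not tested. These animals were noticed after their values were seen, and no test was made between them and the rest.

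**Figure D5:**
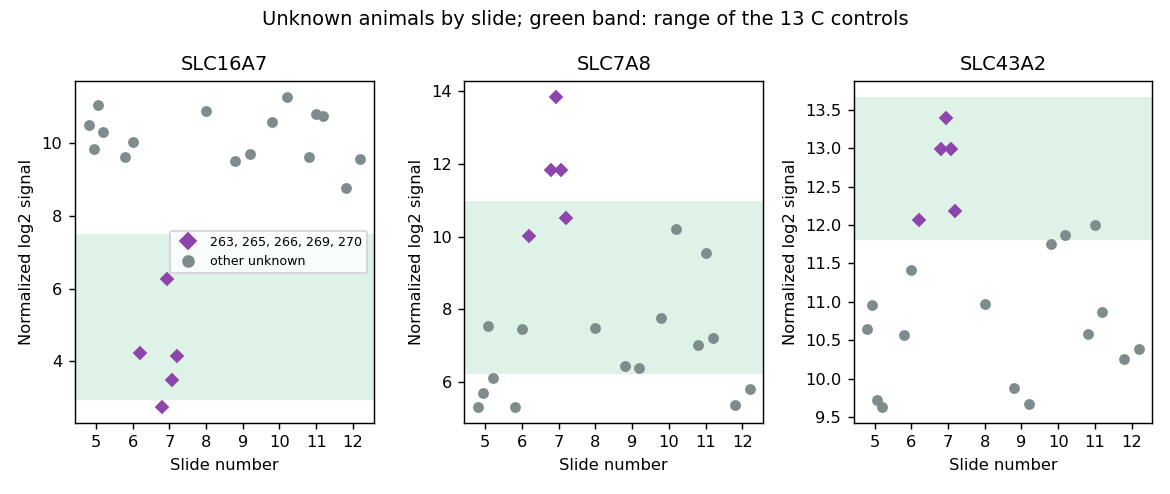
Normalized log2 signal (vertical axes) of 3 SLC probes in 21 unknown animals by slide (horizontal axes); diamonds mark animals 263, 265, 266, 269 and 270, circles the other 16, and the green band spans the 13 C controls. On slide 6, animal 269 measured 4.23 for SLC16A7 beside 9.62 and 10.03 in animals 36 and 58.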

How the data were processed

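Total RNA of 43 animals was labelled with 1 dye and hybridized to bovine arrays, and the authors read each array with Feature Extraction 9.5.1. The authors deposited, per spot, a processed intensity from which background and spatial trends had been removed, together with flags for outliers, saturation and signal well above background. A series table deposited by the authors, with linear intensities of the same arrays after processing of their own and 1858 to 11997 empty gene spots per array, served as an alternative.

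On the log2 scale, the 43 arrays were brought together by cyclic loess (limma 3.58.1 in R 4.3.3), and values were freed of outlier spots and averaged per probe. A probe counted as well above background where all its spots did. Probes with log2 signal under 4 on at least 30 of 43 arrays were left out, which left 16354 of 21475. The study's methods give this limit without its scale, so that log2 is a choice made here. Read as a linear intensity it removed 0 probes, which equals the alternative without a filter, and neither reading left the study's own number of transcripts. limma (lmFit and eBayes, two-sided) compared only the 2 groups at hand, with Benjamini-Hochberg adjustment over all probes left, and ± gives the SE of a log2 change unless marked otherwise. Where a group had no array well above background, a fold was given as a lower bound, from the higher of the probe's own signal and the lowest signal well above background on each array. Spot saturation touched no SLC probe.

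Groups came from the labels alone. Each array held RNA of 1 animal, extracted separately per the methods, and the number of arrays limits the precision. Members, lists and tests were chosen with earlier results of these data known. Named were SLC25A4 and the first SLC37A3 probe, members of a panel of muscle transporters that were called, up to 6 probes per direction and comparison with the largest called changes among those well above background throughout the brighter group, genes with probes called in opposite directions, and the 6 steadiest and 6 most variable probes measured on all arrays. Cell type markers were listed for muscle, slow and fast fibres, red blood cells, adipocytes, leukocytes, endothelium, nerve, fibroblasts and epithelium. The alternatives were 75th percentile scaling, quantile normalization, pairwise cyclic loess, normexp correction, the series table, other filters, a common fit, slide or scan day as a random block, and leaving out each animal of the smaller groups. Some genes that the rule names are not reported here. No sequence or chromosome position was used here, and the RefSeq annotation named above served to match probes to genes.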

Additional observations from a re-analysis of the deposited data

Results flagged for a closer look

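In the groups of 4 suspected animals and 5 K controls, 126 sets of values (63 SLC probes in both groups) were searched for an animal far from the rest of its group, and 4 sets held one. Chance gives about 1 in 20 for a single set. The sets were measured in the same animals and are not independent, so that the count cannot be judged against chance. All 4 were K controls. SLCO2A1 measured 3.14 in K10 and 4.74 to 4.81 in the other 4, SLC29A1, a nucleoside transporter, measured 12.23 in K10 and 12.80 to 13.02 in the others, and SLC39A14 measured 8.25 in K10 and 7.13 to 7.25 in the others. SLC4A9, an anion exchanger family member, measured 3.44 in K12 and 2.33 to 2.58 in the others, none of them well above background. Without K10, the differences from the unknown animals were no longer called for SLCO2A1 (1.36, limma adjusted p = 0.125) and SLC39A14 (-1.05, limma adjusted p = 0.140), and the call of SLC39A14 also ended without any one of the other K controls.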

How the results depend on the processing

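The counts of SLC probes called were 78 in suspected animals against K controls, 51 in C against K controls, 48 in suspected animals against C controls, 0 in suspected against unknown animals and 29 in unknown animals against K controls. Leaving out 1 animal of the smaller groups gave 77 to 81, 48 to 52, 41 to 49, 0 to 0 and 21 to 25. Normexp background correction gave 22, 19, 5, 0 and 11, where the calls over all probes fell as well, to 8.31%, 8.49%, 2.82%, 0.00611% and 5.08%. Without a filter on dim probes, when 330 SLC probes were tested, the counts were 142 against the K controls (43% beside 35.3% of all probes) and 111 against the C controls (33.6% beside 27.2%) for suspected animals, and 25 for suspected against unknown animals (7.58% beside 6.47%). Pairwise cyclic loess gave 92 in suspected animals against C controls (41.8% beside 35.6% of all probes) and 2 against unknown animals (0.909% beside 0.763%). For suspected against unknown animals, a filter on signal well above background gave 24 (21 of them higher in the suspected animals) and a common fit of 43 arrays 16. Choices made after seeing the data left 27 (without unknown animal 79, 12% beside 10.1% of all probes) and 23 calls (without the 5 unknown animals with the lowest spike-in signals, 10.2% beside 10.7%) in unknown animals against K controls. With any spot in place of all spots well above background, 102 SLC probes were measured on every array in place of 87.

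Of 119 named changes, 28 kept their call and direction under every alternative that was run, and normexp correction ended 76 calls. Directions turned in 9 cases. In suspected animals against C controls, pairwise cyclic loess turned SLC25A35 to -0.44, SLC2A3 to -0.66 and SLC41A3 to -0.88, and 75th percentile scaling turned SLC37A2 to 0.093 and SLC8A3 to 0.25. In suspected animals against K controls, pairwise cyclic loess turned SLC25A35 to -0.16, SLC2A11 to -0.94 and SLC8A3 to -1.14, and normexp correction turned SLC7A8 to 0.22. The cause was not tested. No paired analysis was possible because the numbers name animals and no animal was in 2 groups. Slide as a block was fitted where suspected and unknown animals shared slides. Probes near background carry the least precise values.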

Other observations

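Of a panel of 70 transporter genes known from muscle or close to one that is, 65 had a probe and 67 of their 74 probes passed the filter. In suspected animals against K controls 11 of these were higher and 15 lower (38.8%, beside 28.1% of all probes), and in C against K controls 5 and 11 (23.9%, beside 20.6%). In suspected animals against C controls the counts were 7 and 10 (25.4%, beside 17.8%), and in unknown animals against K controls 3 and 7 (14.9%, beside 10.4%). With 75th percentile scaling these splits became 13 and 11, 4 and 15, 12 and 4, and 3 and 6 in the same order, and with pairwise cyclic loess 6 and 19, 6 and 9, 9 and 18, and 3 and 6. Under pairwise cyclic loess the panel share no longer exceeded that of all probes in suspected animals against K controls (38.5%, beside 39.8%). In the other comparisons it was 23.1% beside 21.2%, 41.5% beside 35.6% and 13.8% beside 10.6% in the same order. The excess over all probes was not tested. SLC6A6, the taurine transporter, measured 4.86, 5.08, 5.11 and 4.95 in S21, S54, S56 and S57 and was not well above background in any K control (2.49 to 3.68), which makes the suspected animals at least 1.85-fold higher (limma adjusted p = 8.65e-05). It ranged from 2.68 to 9.89 in the C controls and from 1.99 to 7.16 in the unknown animals.

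The remaining marker lists gave the following log2 sums. Slow fibre markers reached 20.15 to 20.54 in suspected animals, 18.95 to 19.73 in K controls, 19.87 to 20.34 in C controls and 18.85 to 20.78 in unknown animals. Muscle fibre markers reached 19.36 to 19.68, 18.64 to 19.31, 19.32 to 19.65 and 18.55 to 19.92 in the same order. Red blood cell markers stayed between 4.38 and 9.08 in all 43 animals, and the probe for ALAS2, the heme synthesis enzyme of red cells, was well above background on no array. Leukocyte markers lay between 11.21 and 13.07, and epithelial markers between 5.37 and 9.76. Nerve and Schwann cell markers were 13.03 to 13.47 in suspected animals, 12.40 to 13.01 in K controls, 11.99 to 12.75 in C controls and 12.49 to 13.998 in unknown animals. In the K controls, fibroblast markers were 12.75 to 15.14.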
